A study of Mus musculus with 9 samples.

Results

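DNA replication and nucleotide supply genes were followed as a set of 52 genes, all 52 of which were rows of a deposited expression table of 19435 genes. They were taken by symbol and cover the steps by which a cell copies its genome: marking of origins, loading and firing of the replicative helicase, DNA synthesis, Okazaki fragment joining, the making of deoxynucleotides, and the restoring of chromatin on new DNA. The table holds messenger RNA of untreated mouse oviduct tissue in 9 libraries. The 4 tumor libraries (tumors 1 to 4) were primary tumors of genotype Dicer1ko/D1693N, with no wild-type Dicer1 allele named. The 5 oviduct libraries were normal oviducts, 3 of them Dicer1+/D1693N (oviducts 1 to 3), which carry the D1693N allele that the tumors carry too, and 2 of them Dicer1+/+ (oviducts 4 and 5), which carry neither altered allele. DICER1 cuts miRNA precursors with a pair of RNase III domains, and D1693N lies in the one named RNase IIIb. The labels give no age, strain, Cre driver or batch, and do not say whether the libraries came from separate animals, so the p-values measure the spread between these libraries.

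Values are given as counts divided by the library's size factor, here called normalized counts, and changes as the mean deposited log2 value of the tumors less that of the oviducts, with the SE of the fit. Libraries held 8732190 to 11267144 reads in the tumors and 8504993 to 12526078 in the oviducts, and 49 of the 52 genes had at least 10 reads in every library. Dicer1 itself gave 576.3 to 1379.2 normalized counts in the tumors and 903.9 to 1236.8 in the oviducts, which overlap; gene counts cannot show the D1693N substitution. In bulk tissue, fewer cells of a type and less RNA per cell cannot be told apart. The summed level of 6 ciliated cell markers, a check of the oviduct label, was 15.8 to 556.5 in the tumors and 16531.9 to 26100.0 in the oviducts. All 6 were called lower in the tumors, and Ccdc153 and Rsph4a were at 0 in tumors 2 to 4. Of 5 stromal markers 3 were called higher, and the 5 summed to 85991.5 to 104456.8 in the tumors and 19777.5 to 34054.1 in the oviducts. In the tumors the largest parts were Col1a1 and Col1a2, averaging 38964.0 and 38682.8. Of the 5 changes 4 were above 0, and Dcn changed by -0.22 (limma adjusted p = 0.654). Of 5 endothelial markers 4 were called higher. Of 4 mesothelial markers 3 were called lower, and of 5 smooth muscle markers 2. Of 6 oviduct epithelium markers 2 were called lower in the tumors, Ovgp1, the oviduct glycoprotein, with 111.5 to 11678.2 in the tumors and 78143.7 to 150619.1 in the oviducts, and Cdh1. The 5 markers without Ovgp1 summed to 7436.4 to 18025.3 in the tumors and 15601.7 to 21153.8 in the oviducts, which overlap. The part of this difference in cell make-up in the results was not tested.

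As background, replication begins when the origin recognition complex, CDC6 and CDT1 place rings of MCM2 to MCM7 on origin DNA in G1, a step called licensing, which geminin blocks later in the cycle by binding CDT1. In S phase the kinase CDC7 with its activator DBF4 turns the rings, joined by CDC45 and the GINS complex, into the running helicase, and polymerases alpha, delta and epsilon copy the strands with the sliding clamp PCNA and the RFC clamp loader. Many of these genes are transcribed in proliferating cells under E2F factors, which are held back by RB family proteins in resting cells. Most cells of a normal adult oviduct are not dividing.

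The promoters are shown first because E2F binding is the best known shared control of these genes. RefSeq promoter windows (GRCm38.p6), which run from 250 bases before to 50 bases after an annotated start, matched 44 of the 52 genes. The E2F motif was searched as TTTCCCGC, TTTGCCGC, TTTCGCGC or TTTGGCGC on both strands, with overlapping matches kept. It stood in the windows of 17 of these 44 genes, or 38.6%, and in 704 of 27025 genes with a window, or 2.60%. The 27025 were neither limited to genes of the expression table nor matched in base content. The CHR motif TTTGAA, known from genes of late cell cycle phases, was in 18.2% of the 44 genes and 20.2% of all genes, and CCAAT in 59.1% and 41.1%. A match describes letters and not a bound site. Only these 4 exact forms were searched, so a window without a match is not shown to lack E2F sites. Windows of 6 genes follow, 5' to 3' on the gene's strand and in lower case, with every E2F match in capitals. They were picked for the results they belong to: Mcm5 and Rrm2 had the largest changes between tumor and oviduct, Mcm6 the most matches, Cdc6 and Orc1 stand for loading of the helicase, and Pold3 was the gene furthest below 0.
Mcm5, chr8:75109259-75109558, plus strand: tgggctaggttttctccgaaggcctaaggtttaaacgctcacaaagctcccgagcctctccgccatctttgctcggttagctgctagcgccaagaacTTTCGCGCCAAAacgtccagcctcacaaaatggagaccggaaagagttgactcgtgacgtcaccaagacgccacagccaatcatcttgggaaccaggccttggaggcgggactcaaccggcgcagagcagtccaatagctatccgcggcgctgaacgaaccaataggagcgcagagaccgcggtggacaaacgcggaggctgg
Mcm6, chr1:128359656-128359955, minus strand: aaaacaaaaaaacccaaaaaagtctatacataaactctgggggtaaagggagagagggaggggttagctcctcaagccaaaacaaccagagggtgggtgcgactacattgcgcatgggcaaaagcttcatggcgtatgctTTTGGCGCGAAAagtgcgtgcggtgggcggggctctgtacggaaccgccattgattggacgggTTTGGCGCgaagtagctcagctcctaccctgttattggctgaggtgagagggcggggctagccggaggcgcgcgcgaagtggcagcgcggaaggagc
Cdc6, chr11:98907901-98908200, plus strand: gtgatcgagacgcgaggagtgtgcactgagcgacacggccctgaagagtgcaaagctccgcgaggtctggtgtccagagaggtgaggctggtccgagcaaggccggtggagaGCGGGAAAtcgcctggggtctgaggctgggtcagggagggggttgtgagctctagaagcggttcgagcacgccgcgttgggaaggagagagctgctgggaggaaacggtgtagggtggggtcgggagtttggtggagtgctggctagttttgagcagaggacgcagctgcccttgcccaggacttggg
Orc1, chr4:108579204-108579503, plus strand: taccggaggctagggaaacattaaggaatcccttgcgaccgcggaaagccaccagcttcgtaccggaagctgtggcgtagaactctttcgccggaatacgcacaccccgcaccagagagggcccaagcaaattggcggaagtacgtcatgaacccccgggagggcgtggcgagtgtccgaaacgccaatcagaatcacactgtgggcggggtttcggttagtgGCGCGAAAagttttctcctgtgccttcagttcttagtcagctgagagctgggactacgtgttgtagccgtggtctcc
Pold3, chr7:100121453-100121752, minus strand: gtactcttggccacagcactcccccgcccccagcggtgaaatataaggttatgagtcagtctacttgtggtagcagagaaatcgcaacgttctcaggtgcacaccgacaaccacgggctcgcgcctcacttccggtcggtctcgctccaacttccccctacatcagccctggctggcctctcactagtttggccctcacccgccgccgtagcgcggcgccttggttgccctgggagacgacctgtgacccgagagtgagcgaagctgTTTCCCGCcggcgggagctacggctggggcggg
Rrm2, chr12:24708004-24708303, plus strand: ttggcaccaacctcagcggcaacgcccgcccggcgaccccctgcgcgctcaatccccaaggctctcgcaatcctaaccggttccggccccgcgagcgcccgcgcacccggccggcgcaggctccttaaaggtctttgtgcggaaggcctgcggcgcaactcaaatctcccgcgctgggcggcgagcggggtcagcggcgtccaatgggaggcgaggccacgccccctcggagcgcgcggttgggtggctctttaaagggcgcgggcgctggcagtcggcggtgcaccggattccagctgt
Counted from the annotated start as 0, the matches begin at -153 and -149 in Mcm5, where 2 matches on opposite strands share bases, at -110, -106 and -47 in Mcm6, at -138 in Cdc6, at -27 in Orc1 and at 17 in Pold3. In the GENCODE annotation, which gives the gene positions here, Cdc6 starts at 98907801, before its window. The Cdc6 match thus lies upstream of the RefSeq start but inside the GENCODE gene. The Rrm2 window holds none of the 4 forms. Genes with a match had a median change of 1.10 (range -0.31 to 2.62, 10 of 17 called higher in tumors by the test given next), and genes with a window but no match 1.06 (range -0.11 to 2.65, 14 of 27 called higher). These medians lay close together, and their difference was not tested.

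The main comparison set the 4 tumors against the 5 oviducts and asked how the messages of the replication machinery differ between them. The machinery was higher in the tumors, but unevenly. All 6 MCM2-7 helicase genes and all 5 nucleotide supply genes were called higher. None of the 6 origin recognition genes and none of the 3 RPA genes reached the call by limma. With the adjusted p alone, 2 of these 6 and 2 of these 3 passed as higher. Of the 52 genes 27 were called higher, where 6.53% of all genes were, and 0 were called lower, where 12.1% of all genes were (limma, adjusted p under 0.05 and a log2 change of at least 1). Among the 52, 1 gene had a lower value at an unadjusted p under 0.05, and limma-voom also called 0 lower. With the adjusted p alone 36 passed as higher and 0 as lower, against 12.6% and 18.5% of all genes. In 37 of the 52 every tumor lay above every oviduct, as in 10.8% of all genes. The median change was 1.03, and -0.05 over all genes, and 94.2% of the 52 changes were above 0, against 47.2% of all. The summed normalized counts of the 52 genes were 21199.9, 21212.5, 25556.1 and 16939.0 in tumors 1 to 4, against 10928.0, 11467.8, 11690.8, 11030.4 and 11538.5 in oviducts 1 to 5. The lowest tumor stood above the highest oviduct, and the ratio of the mean sums was 1.87.

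**Figure D1:**
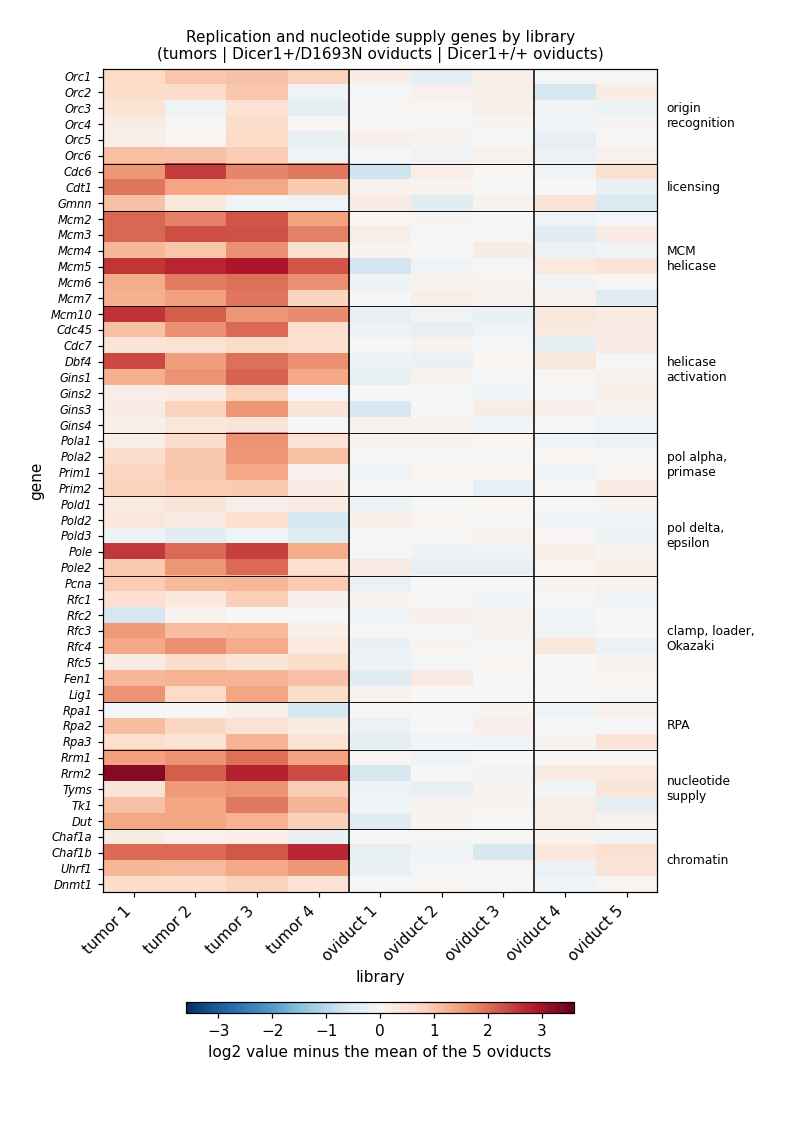
Each cell is the deposited log2 value of 1 of the 52 genes (rows, grouped by role) in 1 library (columns: 4 tumors, 3 Dicer1+/D1693N oviducts, 2 Dicer1+/+ oviducts) minus that gene's mean over the 5 oviducts. The MCM and nucleotide supply rows are red in all 4 tumors, while rows such as Orc3, Rfc2, Rpa1 and Chaf1a stay pale.

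**Figure D2:**
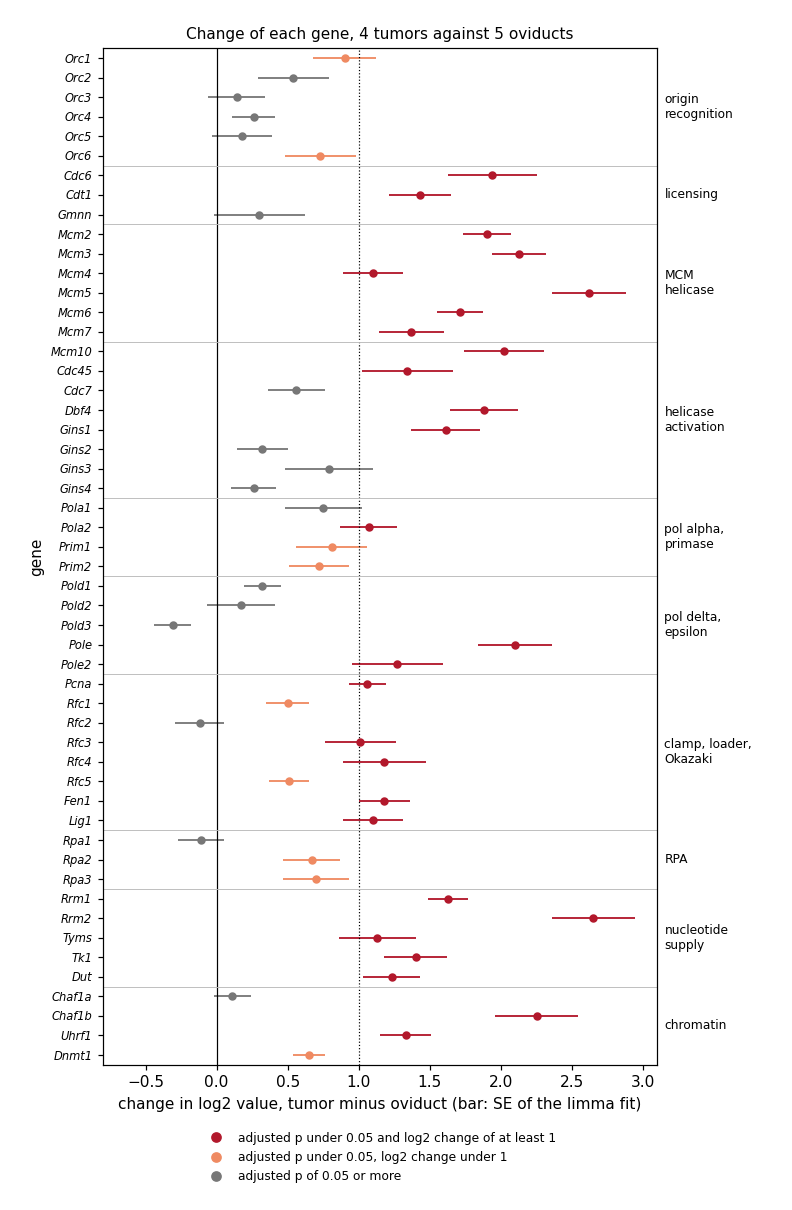
Points give the change of each of the 52 genes in log2 values, tumor minus oviduct, with the SE of the limma fit as the bar; colours mark the 27 genes past both thresholds, the 9 with an adjusted p under 0.05 but a change under 1, and the remaining 16. The dotted line marks a change of 1; changes run from -0.31 for Pold3 to 2.65 for Rrm2.

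The origin recognition complex marks the sites where replication can start, and 0 of its 6 genes were called by limma, 2 had an unadjusted p under 0.05, and limma-voom called 1, Orc1. Orc1 (chromosome 4, 108579423 to 108614833), the subunit whose level follows the cell cycle, had 34.0, 45.4, 47.3 and 37.9 normalized counts in tumors 1 to 4, against 20.1, 8.2, 18.9, 13.4 and 13.4 in oviducts 1 to 5. All 4 tumors lay above all oviducts at this low level, at 2.78 times the mean. Its change of 0.90 ± 0.22 passed the adjusted p (0.0103) but not the minimum of 1, and on the reads themselves limma-voom gave 1.52 (adjusted p = 0.0123), since the deposited scale understates changes of genes with few reads. Orc6, the smallest subunit, had 427.3, 415.6, 377.2 and 172.5 in tumors 1 to 4, against 193.1, 173.7, 215.9, 160.4 and 213.2 in oviducts 1 to 5. Tumors 1 to 3 lay far above the oviducts and tumor 4 lay within them. Its change was 0.73 ± 0.25 (adjusted p = 0.04998), and without tumor 4 it was 1.02 (adjusted p = 0.000895), past both thresholds.

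The remaining core subunits bind origins as a stable complex, and their groups overlapped. Orc2 had 453.5, 453.1, 564.1 and 253.4 in the tumors and 267.9, 309.9, 328.4, 176.9 and 341.6 in the oviducts (0.54 ± 0.25, limma adjusted p = 0.129). It shares 24.0% of its exon bases with the opposite-strand gene Nif3l1, which averaged 382.5 in the tumors and 329.2 in the oviducts, so its count is uncertain. Orc5 had 243.8, 215.8, 351.3 and 167.2 in the tumors and 238.9, 225.3, 197.0, 165.1 and 211.0 in the oviducts (0.18 ± 0.21, limma adjusted p = 0.553). Tumor 3 was the highest library and tumor 4 lay within the oviducts for both Orc2 and Orc5. Orc3 had 662.3, 419.0, 684.5 and 371.2 in the tumors and 487.8, 494.9, 533.3, 427.6 and 407.5 in the oviducts (0.14 ± 0.20, limma adjusted p = 0.648). Orc4 had 574.9, 491.7, 763.3 and 500.6 in the tumors and 469.9, 457.4, 509.5, 439.4 and 505.8 in the oviducts (0.26 ± 0.15, limma adjusted p = 0.219). The 95% interval of the change was -0.31 to 0.58 for Orc3 and -0.07 to 0.59 for Orc4, so a rise of 1 lay outside both. On exon length, Orc1 was the scarcest subunit in both tissues, with 1.74% ± 0.49 (SD, n = 4) of the summed normalized counts per kilobase of the 6 genes in tumors and 0.805% ± 0.238 (SD, n = 5) in oviducts, ranges that did not overlap.

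CDC6 and CDT1 load the helicase on origins, and both rose. Cdc6 (chromosome 11, 98907801 to 98923940) had 64.1, 138.5, 73.2 and 83.1 normalized counts in tumors 1 to 4, against 2.2, 15.0, 10.9, 8.6 and 22.3 in oviducts 1 to 5. The lowest tumor stood far above the highest oviduct, and oviduct 1 was under the level of 3 reads. The change was 1.94 ± 0.31 (limma adjusted p = 0.000977). Cdt1 had 149.3 to 314.6 in the tumors and 52.5 to 75.9 in the oviducts, without overlap, a change of 1.43 ± 0.22 (limma adjusted p = 0.000946). Gmnn, which encodes geminin, the inhibitor of CDT1, had 169.9, 97.7, 65.3 and 64.2 in tumors and 91.5, 50.2, 80.6, 106.1 and 44.7 in oviducts. Only tumor 1 lay above all oviducts, and the change was 0.30 ± 0.32 (limma adjusted p = 0.509, 95% interval -0.40 to 1.01).

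The MCM2-7 ring is the core of the replicative helicase, and its 6 genes rose with a median change of 1.81, the highest of the 10 role groups. Mcm5 (chromosome 8, 75109569 to 75128439) had 533.2, 601.9, 683.4 and 430.1 in tumors 1 to 4, against 38.0, 67.4, 70.6, 99.0 and 109.4 in oviducts 1 to 5. Every tumor was several times above every oviduct (mean 7.31 times, change 2.62 ± 0.26, limma adjusted p = 3.82e-05). Mcm4 changed least, with 750.7, 647.3, 1033.5 and 482.7 in the tumors and 341.6, 314.4, 381.1, 268.8 and 285.8 in the oviducts. These groups did not overlap either (1.10 ± 0.21, limma adjusted p = 0.00275), but without tumor 3 its change was 0.92, below the minimum. Mcm2, Mcm3, Mcm6 and Mcm7 changed by 1.90, 2.13, 1.71 and 1.37, with no overlap in any of them. The uneven rise made the subunit messages more alike: per kilobase of exon, the most abundant subunit was 2.09 times the least abundant in tumors and 6.55 times in oviducts. Mcm5 made up 11.7% ± 0.53 (SD, n = 4) of the MCM2-7 sum in tumors and 5.56% ± 2.28 (SD, n = 5) in oviducts, while Mcm4 made up 14.4% ± 1.81 (SD, n = 4) in tumors and 21.9% ± 2.22 (SD, n = 5) in oviducts.

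Of the 8 genes that turn the loaded ring into an active helicase, 4 rose. Mcm10 (chromosome 2, 4989714 to 5012791), which joins origins as they fire, had 140.8, 101.1, 60.8 and 66.3 in tumors 1 to 4, against 5.6, 7.5, 6.0, 17.3 and 14.5 in oviducts 1 to 5. No oviduct came near the lowest tumor (mean 9.07 times, change 2.02 ± 0.28, limma adjusted p = 0.000442). Dbf4, the activating subunit of the CDC7 kinase, changed by 1.88, Gins1 by 1.61 and Cdc45 by 1.34. Cdc7, the kinase subunit itself, had 96.1 to 112.6 in the tumors and 47.2 to 82.6 in the oviducts, which did not overlap, yet its change of 0.56 ± 0.20 did not pass (limma adjusted p = 0.0573). Gins3 likewise did not overlap and did not pass (0.79 ± 0.31, limma adjusted p = 0.0799).

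The GINS genes, whose products form a complex of 4 different subunits, split. Gins4 had 242.8, 283.9, 302.9 and 216.6 in tumors and 235.5, 237.3, 196.0, 206.7 and 195.4 in oviducts, an overlap, with a change of 0.26 ± 0.16 (limma adjusted p = 0.237). Gins2 had 505.0, 538.3, 789.2 and 416.5 in tumors and 427.5, 417.7, 405.0, 421.3 and 505.8 in oviducts (0.32 ± 0.18, limma adjusted p = 0.200). It overlaps Gse1 over 70.7% of its exon bases, and as the strandedness of the counting is not given in the sources used here, its value is uncertain; Gse1 averaged 968.0 in the tumors and 789.8 in the oviducts. Gins1 was 16.3% ± 1.86 (SD, n = 4) of the GINS sum per kilobase in tumors and 4.28% ± 0.94 (SD, n = 5) in oviducts, the largest shift of share among the 4 genes.

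**Figure D3:**
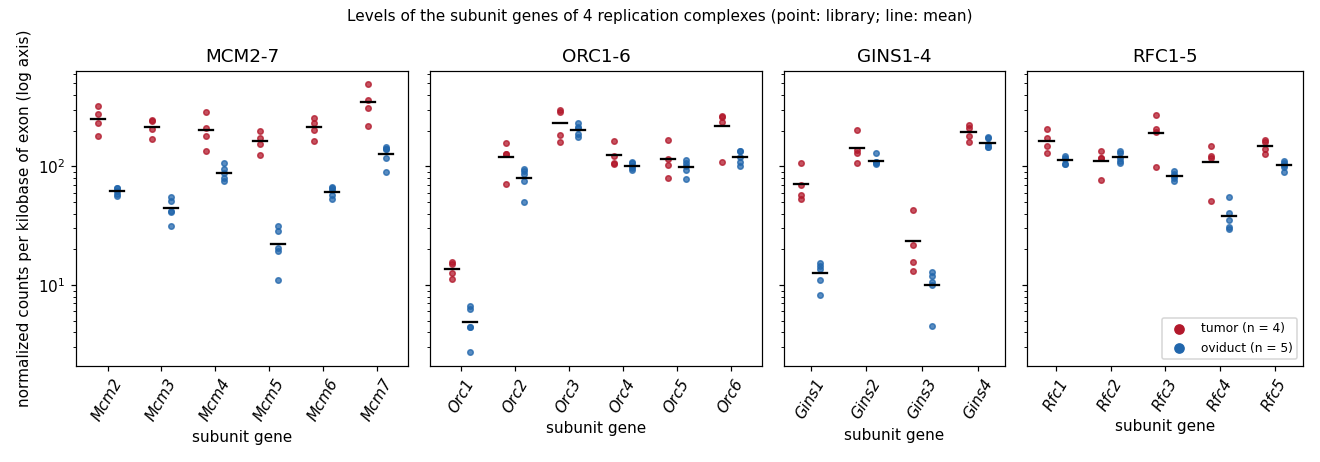
Normalized counts per kilobase of annotated exon (log axis) of the subunit genes of MCM2-7, ORC1-6, GINS1-4 and RFC1-5, with 1 point per library (tumor to the left of oviduct) and the mean as a line. Tumors and oviducts do not overlap for the MCM genes and Gins1, whereas they do for Orc3 to Orc5, Gins4 and Rfc2.

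DNA polymerase alpha with primase starts each new strand with a short primer, and 1 of its 4 genes was called. Pola2, the regulatory subunit, had 205.9, 264.6, 414.3 and 281.8 in tumors 1 to 4, against 128.4, 125.8, 118.4, 132.1 and 117.2 in oviducts 1 to 5. All tumors lay above a narrow oviduct range (1.07 ± 0.20, limma adjusted p = 0.00257), though without tumor 3 the change was 0.90. Prim2, the large primase subunit, had 175.8, 190.8, 198.2 and 114.6 in the tumors and 90.4, 95.1, 72.6, 95.9 and 115.0 in the oviducts. The groups met only where tumor 4 lay just under oviduct 5, and the change of 0.72 ± 0.21 passed the adjusted p (0.0246, limma) without reaching 1. Prim1, the catalytic primase subunit, changed by 0.81 (limma adjusted p = 0.0311), and by 1.04 without tumor 4. Pola1, the catalytic polymerase subunit, changed by 0.75 ± 0.27 (limma adjusted p = 0.054).

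Polymerases epsilon and delta carry out most of the synthesis, on the leading and lagging strand, and their genes in the set parted. Pole (chromosome 5, 110286306 to 110337474), the catalytic subunit of epsilon, had 345.7, 241.9, 326.5 and 139.9 in tumors 1 to 4, against 42.4, 36.7, 38.8, 54.2 and 48.0 in oviducts 1 to 5. It rose by 2.10 ± 0.26 without overlap (limma adjusted p = 0.000221), and Pole2, a further epsilon subunit, by 1.27 ± 0.32 (limma adjusted p = 0.0133). None of the 3 delta genes of the set was called by limma or limma-voom, and Pold1 and Pold3 had an unadjusted p under 0.05. Pold2 had 315.6, 290.7, 365.9 and 144.1 in the tumors and 266.8, 244.8, 231.8, 216.9 and 209.9 in the oviducts; tumors 1 to 3 were above all oviducts and tumor 4 was below all of them (0.17 ± 0.24, limma adjusted p = 0.631). Pold3 (chromosome 7, 100082111 to 100121565) had 487.5, 413.3, 502.1 and 396.5 in the tumors and 536.9, 574.2, 622.9, 574.6 and 494.6 in the oviducts. Tumors 1, 2 and 4 lay below all oviducts and tumor 3 just above oviduct 5 (-0.31 ± 0.13, unadjusted p = 0.0388 and adjusted p = 0.0982 by limma). Pold1, the catalytic subunit of delta, had 336.6 to 419.0 in the tumors and 259.0 to 319.3 in the oviducts, a separation with a change of only 0.32 ± 0.13 (limma adjusted p = 0.0963). Outside the set, the further epsilon genes Pole3 and Pole4 changed by 0.09 and 0.0, and the delta gene Pold4 by -0.05. None of these was called by limma, so the rise does not extend to every epsilon subunit gene.

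The clamp PCNA holds polymerases on DNA, RFC loads it, and FEN1 and LIG1 finish Okazaki fragments; 5 of these 8 genes rose. Pcna had 918.7 to 1124.7 in the tumors and 399.6 to 530.3 in the oviducts, without overlap (1.06 ± 0.13, limma adjusted p = 0.000191). Rfc4 had 158.3, 193.0, 153.1 and 67.3 in tumors 1 to 4, against 39.1, 53.2, 45.8, 71.5 and 40.2 in oviducts 1 to 5. Only tumor 4 and oviduct 4 crossed (1.18 ± 0.29, limma adjusted p = 0.0115). Fen1 had 296.2, 311.1, 305.1 and 268.2 in the tumors and 84.8, 155.7, 117.4, 121.8 and 125.0 in the oviducts, a clear separation (1.18 ± 0.18, limma adjusted p = 0.000797). It shares 84.1% of its exon bases with opposite-strand genes, among them Tmem258, so its count is uncertain; Tmem258 averaged 341.0 in the tumors and 391.4 in the oviducts. Lig1 changed by 1.10, and by 0.93 without tumor 1. Rfc3 changed by 1.01 ± 0.25 (limma adjusted p = 0.0123), at the edge of the rule, and by 0.83 without tumor 1.

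The clamp loader subunits did not move as a unit. Rfc2 had 386.5, 671.1, 584.3 and 585.8 in tumors and 530.2, 673.8, 649.8, 551.8 and 586.1 in oviducts, with tumor 1 below all oviducts and the other tumors among them (-0.12 ± 0.17, limma adjusted p = 0.627, 95% interval -0.49 to 0.25). The large subunit gene Rfc1 changed by 0.50 and Rfc5 by 0.51, both without overlap and with an adjusted p under 0.05 (0.0269 and 0.0166 by limma), but short of 1. Pcna and Tyms have annotated processed copies elsewhere in the genome that were not rows of the table, so reads shared with them are an uncertainty for these genes.

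RPA coats single-stranded DNA at the fork and in repair. None of its 3 genes was called by limma or limma-voom, and Rpa2 and Rpa3 passed the adjusted p alone without reaching a change of 1. Rpa2, the middle subunit, had 312.7, 239.6, 202.7 and 169.3 in tumors 1 to 4, against 113.9, 137.0, 153.2, 134.4 and 134.0 in oviducts 1 to 5, without overlap (0.67 ± 0.20, limma adjusted p = 0.0251). Rpa3, the smallest subunit, had 171.9, 155.6, 271.3 and 156.7 in tumors 1 to 4, against 78.1, 96.6, 98.5, 114.0 and 153.0 in oviducts 1 to 5. Tumors 2 and 4 lay only just above oviduct 5 (0.70 ± 0.23, limma adjusted p = 0.0436). Rpa1, the large subunit that holds most of the DNA contacts, had 648.7, 697.2, 781.4 and 461.7 in the tumors and 650.8, 685.8, 741.3, 619.4 and 754.7 in the oviducts. Tumors 1 and 2 lay among the oviducts, tumor 3 above and tumor 4 below all of them (-0.11 ± 0.16, limma adjusted p = 0.640, 95% interval -0.47 to 0.24). Per kilobase, Rpa1 was 23.5% ± 2.46 (SD, n = 4) of the RPA sum in tumors and 36.7% ± 3.72 (SD, n = 5) in oviducts.

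All 5 nucleotide supply genes rose without overlap between tumors and oviducts. RRM1 and RRM2 are the subunits of ribonucleotide reductase, which turns ribonucleotides into deoxyribonucleotides; RRM2 is the cell cycle regulated one. Rrm2 (chromosome 12, 24708241 to 24714146) had 524.4, 236.2, 362.5 and 264.0 in tumors 1 to 4, against 19.0, 36.7, 32.8, 51.1 and 52.5 in oviducts 1 to 5. Tumor 1 was the highest, and the mean was 9.03 times that of the oviducts (2.65 ± 0.29, limma adjusted p = 7.95e-05). Rrm1 had 1116.8, 1243.5, 1593.1 and 1089.5 in the tumors and 401.8, 354.9, 393.0, 393.8 and 405.3 in the oviducts, the smallest adjusted p of the 52 genes (1.63 ± 0.14, limma adjusted p = 1.52e-05).

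Tk1, the cytosolic thymidine kinase of the salvage route, and Dut, which removes dUTP, changed by 1.40 and 1.23. Tyms, which makes thymidylate anew, changed least, with 165.1, 366.8, 388.4 and 229.3 in the tumors and 97.1, 91.3, 124.4, 105.3 and 161.9 in the oviducts. Tumor 1 lay only just above oviduct 5 (1.13 ± 0.27, limma adjusted p = 0.00985), and without tumor 3 the change was 0.96. Outside the 52, Rrm2b, the p53-induced small subunit that serves repair and mitochondrial DNA in resting cells, had 198.7 to 289.3 in the tumors and 399.3 to 580.4 in the oviducts, without overlap (-0.99 ± 0.17, limma adjusted p = 0.00179), just short of the minimum.

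CAF-1, of CHAF1A and CHAF1B, places histones on new DNA, and UHRF1 brings DNMT1 to it to copy DNA methylation. Chaf1b (chromosome 16, 93883901 to 93906115) had 169.0, 171.5, 201.5 and 290.3 in tumors 1 to 4, against 20.1, 25.5, 13.9, 41.7 and 49.1 in oviducts 1 to 5. All tumors were far above all oviducts, and tumor 4, low for most of the set, was the highest (2.25 ± 0.29, limma adjusted p = 0.000228). Its partner Chaf1a had 982.8, 923.2, 980.6 and 694.1 in the tumors and 824.9, 792.8, 846.8, 889.0 and 755.8 in the oviducts. Tumors 1 to 3 were above and tumor 4 below all oviducts (0.11 ± 0.13, limma adjusted p = 0.578, 95% interval -0.19 to 0.41). Chaf1a shares 33.6% of its exon bases with the opposite-strand gene Ubxn6, which averaged 738.3 in tumors and 796.0 in oviducts. Uhrf1 rose by 1.33 ± 0.18, again highest in tumor 4, at 515.3. Dnmt1 changed by 0.65 ± 0.11, without overlap and at an adjusted p of 0.00164 (limma), but below 1.

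Pairs of genes with a shared or opposed role were compared within each library as the difference of their log2 values, which removes what a library shifts in both genes alike. Of 7 pairs, 6 differed between tumors and oviducts without overlap, each at the smallest p that 4 against 5 libraries allow (two-sided exact permutation test, p = 0.0159, adjusted p over the pairs = 0.0185). As the pairs were chosen with earlier results of these data known, these p-values describe the separation and are no independent support. Cdt1 minus Gmnn was 0.82, 0.99, 1.44 and 1.01 in tumors 1 to 4, against -0.22, 0.44, -0.18, -0.50 and 0.17 in oviducts 1 to 5, so the loader's message was shifted up relative to that of its inhibitor in every tumor. Rrm2 minus Rrm1 was -1.06, -2.30, -2.07 and -1.96 in the tumors and -3.50, -2.74, -2.99, -2.55 and -2.56 in the oviducts, a shift of 1.02 toward the cell cycle regulated subunit. Rrm2 minus Rrm2b, the small subunits, was 1.28, 0.23, 0.31 and 0.04 in the tumors and -4.01, -3.24, -3.47, -2.57 and -2.58 in the oviducts, a shift of 3.64, the widest of the 7 pairs.

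Dbf4 minus Cdc7 differed by 1.32 between tumors and oviducts, Uhrf1 minus Dnmt1 by 0.68 and Orc1 minus Orc4 by 0.64. On log2 of normalized counts plus 1, which shrinks genes with few reads less, the difference was 1.19 for Orc1 minus Orc4 and 1.48 for Rrm2 minus Rrm1, at the same adjusted p (exact permutation test). Tk1 minus Tyms, salvage against new synthesis of thymidylate, was 0.02, -0.67, -0.26 and -0.24 in tumors, against -0.47, -0.21, -0.58, -0.25 and -1.34 in oviducts. These overlapped, and the difference of 0.28 was not past the threshold (two-sided exact permutation test, p = 0.3492). With the 3 Dicer1+/D1693N oviducts alone as controls the differences of the 6 pairs were 0.62 to 4.04, still without overlap, but 4 against 3 libraries cannot go below an exact p of 0.0571.

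**Figure D4:**
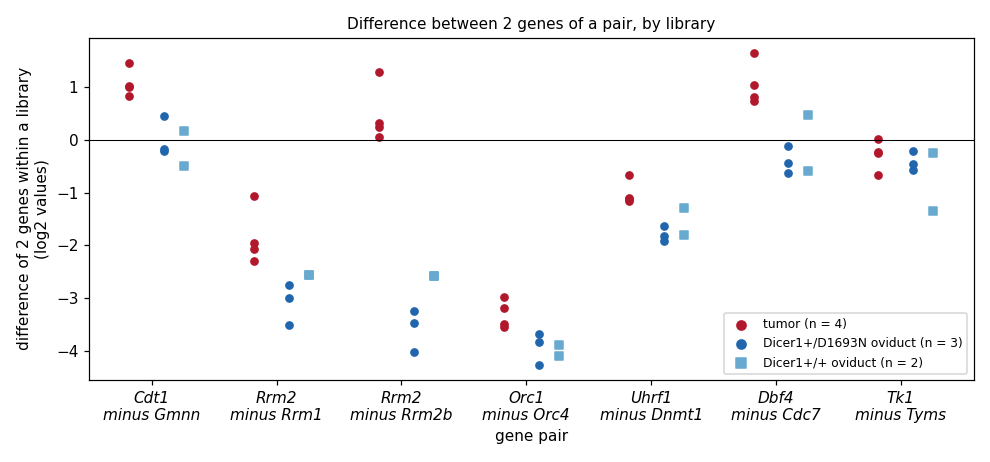
Each point is 1 library's difference between the log2 values of 2 genes, for 7 pairs, with tumors to the left of Dicer1+/D1693N and Dicer1+/+ oviducts. Tumors are separate from both kinds of oviduct in 6 pairs and overlap them for Tk1 minus Tyms, and Rrm2 minus Rrm2b shifts most, by 3.64.

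The controls were then taken by genotype. Against the Dicer1+/D1693N oviducts, which share the D1693N allele, 25 of the 52 genes were higher in tumors (5.17% of all genes) and 0 lower (11.4% of all genes, limma; 1 of the 52 was lower at an unadjusted p under 0.05, and limma-voom called 0 lower). Against the Dicer1+/+ oviducts 21 were higher (4.07% of all genes) and 0 lower (9.74% of all genes, limma; 0 of the 52 at an unadjusted p under 0.05, and 0 by limma-voom). The count of 21 rests on few controls: it was 8 without oviduct 5 and 11 without oviduct 4. The median changes were 0.97 and 0.95. These comparisons share the 4 tumors, and 20 of the 52 genes were called higher in both and in the pooled comparison.

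Between the control genotypes, Dicer1+/D1693N against Dicer1+/+ oviducts, no gene of the set was called in either direction, against 0.00515% of all genes higher and 0.0154% lower. By limma 2 of the 52, or 3.85%, had an unadjusted p under 0.05, near the 2.75% of all genes, and limma-voom called 0. These were Mcm5 and Chaf1b, given here as values only. Mcm5 had 38.0, 67.4 and 70.6 in Dicer1+/D1693N oviducts and 99.0 and 109.4 in Dicer1+/+ oviducts, and Chaf1b 20.1, 25.5 and 13.9 in Dicer1+/D1693N oviducts and 41.7 and 49.1 in Dicer1+/+ oviducts. The genotypes did not overlap in these genes, but all 5 oviducts stayed far under the tumors.

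The tumors varied more than the oviducts, in the set as in the whole table: the coefficient of variation was larger in the tumors for 80.8% of the 52 genes and for 84.8% of all genes with reads in both groups. Its median over the 52 genes was 29.6% in tumors and 13.9% in oviducts, and over all genes 43.3% in tumors and 19.4% in oviducts. Tumor 3 was the highest tumor in 31 of the 52 genes (59.6%, against 27.6% of all genes) and tumor 4 the lowest in 31 (59.6%, against 24.8% of all genes). Tumor 1 led in 11 (21.2%, against 26.8% of all genes), among them Rrm2, Mcm10, Dbf4, Cdt1, Gmnn and Lig1. It was the lowest tumor in 14 (26.9%, against 20.8% of all genes). Tumor 4 led in 3 (5.77%, against 26.5% of all genes), namely Rfc5, Chaf1b and Uhrf1. The sum over 8 markers of dividing cells gave the same top and bottom, with 6064.7, 4396.9, 7067.1 and 3718.6 in tumors 1 to 4, against 411.9 to 709.8 in the oviducts. Other cell markers also set single tumors apart. Tumor 4 held the most signal of 4 fat cell markers, 32032.3, where tumors 1 to 3 had 29.3 to 88.4 and the oviducts 1104.0 to 9617.1, and of 4 macrophage markers, 33072.4, where tumors 1 to 3 had 4285.0 to 18559.8 and the oviducts 1870.1 to 3574.2. Of the macrophage markers 2 of 4 were called higher in tumors, and of the fat cell markers 0 of 4 were called (limma; 0 at an unadjusted p under 0.05, and 0 by limma-voom). The fat cell marker Adipoq was at 0 in tumors 1 to 3. Tumor 1 had 41121.7 for 3 red cell markers, where tumors 2 to 4 had 816.3 to 1313.9 and the oviducts 761.4 to 1472.7. For 5 smooth muscle markers tumor 1 had 66598.5 and tumor 3 only 2744.9, where the oviducts had 29693.1 to 65974.2, and tumor 3 was also the lowest tumor for the macrophage markers. The part of these cells in the differences among the tumors was not tested.

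Other genes of the pathway were read from further lists. Of 35 measured replisome and checkpoint genes outside the 52, 10 were higher in tumors and 0 lower (limma; 0 lower at an unadjusted p under 0.05, and 0 by limma-voom), with a median change of 0.38. Clspn, the mediator of the ATR checkpoint at forks, led with 145.7, 113.6, 224.0 and 98.9 in tumors 1 to 4, against 15.6, 17.2, 20.9, 12.6 and 17.9 in oviducts 1 to 5 (2.20 ± 0.25, limma adjusted p = 0.000118). Exo1, an exonuclease of repair, and Ticrr, which helps origins fire, followed with 2.15 and 1.99. Of 36 other nucleotide supply genes 4 were higher and 1 lower by limma (limma-voom 6 and 2), where 6.53% of all genes were higher and 12.1% lower, with a median of 0.16 beside the 1.40 of the 5 genes of the set. Dck, which phosphorylates salvaged deoxycytidine, changed by 1.48, Ctps, which makes CTP, by 1.19, and Cmpk1, the cytosolic UMP and CMP kinase, by 1.16, while Cmpk2, its mitochondrial relative, was lower by -1.65 ± 0.28 (limma adjusted p = 0.00155).

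Among 18 other genes of chromatin replication 5 were higher, with a median of 0.61, led by Top2a, a topoisomerase (3.39), Hells, a chromatin remodeler needed for DNA methylation (2.49), and Esco2, which makes cohesin hold sister chromatids (1.94). Of the 8 dividing cell markers, which include Top2a and E2f1 of the other lists, 7 were higher, with a median of 3.25, so these marker messages stood further above the oviducts than the 52 genes with their median of 1.03. Of 13 genes of E2F factors and their RB family partners 4 were higher, E2f8 by 1.56, E2f3 by 1.48, E2f7 by 1.46 and E2f1 by 1.43. By limma 0 were called lower, but 2 were lower with the adjusted p alone, and limma-voom called 0 lower. E2f1, an activator, had 203.0, 166.9, 217.3 and 119.9 in tumors 1 to 4, against 32.4, 55.4, 42.8, 66.0 and 72.6 in oviducts 1 to 5, without overlap. Rbl2, which encodes the repressor p130 of resting cells, changed by -0.66 (limma adjusted p = 0.00965), short of the minimum. Rb1 changed by -0.33 (limma adjusted p = 0.0462), also short of it.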

How the data were processed

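Per the labels' protocols, a miRNeasy kit gave total RNA, mRNA was captured on oligo-T beads and cDNA primed with random hexamers, for Illumina paired-end sequencing. Per the submitters' processing notes, FastQC 0.11.5, STAR 2.5.3a and HTSeq were used with GRCm38 (mm10). The annotation and strandedness of counting are not given in the sources used here. The authors deposited a table of log2 values for 19435 genes in 9 libraries, without naming the transformation, and the lowest value in each column is 3.427. Undoing a variance-stabilizing transformation returned whole reads over a size factor for 100% of values (tolerance 0.05 reads), from which normalized counts and read totals were taken. Every gene had at least 10 reads in total. A level of 3 reads is 2.246 to 3.407 normalized counts. It allows for counting error only and not for PCR copies, which carry no molecular identifiers and so cannot be told apart.

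Tests used limma 3.58.1 in R 4.3.3 (moderated, two-sided, trend in the prior variance) on the deposited log2 values over all 19435 genes with Benjamini-Hochberg adjustment. A gene was called higher or lower ("rose", "fell") where the adjusted p was under 0.05 and the log2 change 1 or more in size. Tumor against oviduct was a 2-group model, and the genotype comparisons came from a 3-group model. Pair differences had two-sided exact permutation tests, adjusted over 7 pairs. The script was tested on simulated data. Alternatives were limma-voom on the recovered reads, quantile normalization, library totals in place of size factors, a low-value filter, no trend, the title number as a replicate block, and each library left out.

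The 52 genes, their 10 role groups, the other lists and the pairs were chosen with earlier results of these data known. Values in every library are given for the genes with the largest and smallest change of each role group and for genes whose groups overlap, and up to 3 genes per direction of the other lists; further values (Cdt1, Cdc7, Pcna, Rrm1, Orc1 and others given as ranges) were chosen after seeing their values. Gene positions and exon lengths are from GENCODE M21 (GRCm38), promoters from RefSeq. No batch is given in the labels.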

Additional observations from a re-analysis of the deposited data

Results flagged for a closer look

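Within groups of 4 tumors or 5 oviducts, 6 of 104 groups of values held a library with an unusually large gap to the others, where chance at 1 in 20 gives about 5.2. Orc6 in tumor 4 had 172.5 normalized counts, and the other tumors 377.2 to 427.3. Among the oviducts, Cdt1 in oviduct 5 was low at 52.5 (others 68.7 to 75.9) and Gins2 in oviduct 5 was high at 505.8 (others 405.0 to 427.5). Gins3 in oviduct 1 was low at 12.3 (others 27.0 to 34.8), Lig1 in oviduct 1 was high at 247.8 (others 215.9 to 221.6), and Rrm1 in oviduct 2 was low at 354.9 (others 393.0 to 405.3). Their cause was not tested.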

How the results depend on the processing

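For tumor against oviduct, the 27 genes of the set called higher became 30 with quantile normalization, 23 with library totals, 28 with limma-voom, 27 without the trend, 24 of 47 tested with the low-value filter and 36 without the minimum change, and 22 (without tumor 3) to 29 (without tumor 4) with one library left out. The count called lower was 0 in each of these. Quantile normalization raised the median change of all genes to 0.078 and library totals lowered it to -0.135. Library totals took Mcm4, Pola2, Pcna and Rfc3 under the minimum, and quantile normalization added Orc1, Gins3 and Prim1. Leaving out single libraries also took Lig1 and Tyms under the minimum. Changes near 0 turned sign in 3 genes: Rfc2, at -0.22 to 0.04 with one library left out (highest without tumor 1), Rpa1, at -0.21 to 0.04 (highest without tumor 4), and Chaf1a to -0.02 with library totals. Against the 2 Dicer1+/+ oviducts the count of 21 ranged from 8 (without oviduct 5) to 27 (without tumor 4) and was 11 without oviduct 4, where the lone remaining library is assumed to vary like the others. With 4 tumors against the 3 Dicer1+/D1693N oviducts, where the smallest exact p is 0.0571, the pair differences were 1.05 for Cdt1 minus Gmnn, 1.23 for Rrm2 minus Rrm1, 4.04 for Rrm2 minus Rrm2b, 0.62 for Orc1 minus Orc4, 0.77 for Uhrf1 minus Dnmt1 and 1.45 for Dbf4 minus Cdc7, all at an adjusted p of 0.0667.

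Libraries that share a number in their titles did not deviate together (correlations 0.117, 0.061, -0.089 and 0.006). No pairing by number was seen, but these correlations alone cannot exclude one. With the number as a replicate block, 25 genes were called higher against all oviducts (Pole2 and Rfc4 lost, adjusted p = 0.0637 and 0.075 by limma) and 1 against the Dicer1+/+ oviducts.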
